A study of Mus musculus with 2 samples.

Results

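Alveolar type 2 (AT2) cells with the highest share of lysozyme 1 (Lyz1) transcripts were examined in sorted mouse lung epithelium. AT2 cells were taken as cells in which the surfactant gene Sftpc held at least 15% of the UMIs (unique molecular identifiers, tags that count each captured transcript once). Of these, cells with Lyz1 at 0.8% of UMIs or more are called Lyz1-high here, cells under 0.2% Lyz1-low, and cells between them middle. The Lyz1-high class held 2436 of 16715 AT2 cells, and 19152 cells of any kind passed the filters of at least 2000 UMIs, at least 500 genes and at most 20% mitochondrial UMIs. The Lyz1-low class held 13414 AT2 cells and the middle class 865.

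The cells came from 1 tumor-bearing and 1 control library of droplet single-cell RNA sequencing, both from wild type C57BL/6 mice. The tumor-bearing lung was taken 14 days after 1000000 luciferase-labeled LLC cells (Lewis lung carcinoma, a transplantable mouse lung cancer line) were placed under the skin of the back, a model with spontaneous spread to the lung. The control was non-treated. In both, CD45- SftpC+ cells were sorted, so the AT2 class was chosen once by the sort and again by Sftpc. With 1 library per group, a difference between libraries cannot be told apart from one between mice or preparations, no test across mice was possible, and all intervals here are 95% intervals that cover counting error only. How many animals went into a library is not given in the sources used here.

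AT2 cells make, store and recycle pulmonary surfactant, and they renew the alveolar epithelium by dividing and by giving rise to flat alveolar type 1 (AT1) cells. Lysozyme cleaves the peptidoglycan of bacterial cell walls. Mice carry a pair of neighbouring lysozyme genes: Lyz1, best known from Paneth cells of the small intestine, and Lyz2, the lysozyme of macrophages, which AT2 cells also express and secrete into the airspace.

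The deposited libraries held 84448360 UMIs (tumor-bearing) and 91498124 UMIs (control), and 8165 and 10987 cells were kept. The median cell had 8696 UMIs (tumor-bearing) and 6869 UMIs (control). Cell barcodes found in both libraries numbered 128, where 122 would be shared by chance. AT2 markers were present at high levels in every class: the 10 markers, which include Sftpc, summed to 327914 counts per 1000000 UMIs (CPM, computed on the UMIs summed over the cells of a class) in Lyz1-high and 324475 CPM in Lyz1-low cells of the tumor-bearing library, and to 323560 and 320914 CPM in the control library. In cells with Sftpc under 2% the same markers summed to 18929 CPM (tumor-bearing) and 19723 CPM (control). The rule chose cells by Sftpc, which held 265039 CPM (tumor-bearing) and 264878 CPM (control) in Lyz1-high cells. These sums therefore cannot test AT2 identity. The median marker had 3175 CPM in Lyz1-high and 2988 CPM in Lyz1-low cells of the tumor-bearing library. In the control library it had 2469 and 2349 CPM. With Sftpc under 2% it had 270 CPM (tumor-bearing) and 197 CPM (control).

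Lyz1 split AT2 cells into a large low and a smaller high population, joined by few cells. The Lyz1-high share was 17.7% of AT2 cells in the tumor-bearing library (1186 of 6719; Clopper-Pearson interval 16.7 to 18.6%) and 12.5% in the control library (1250 of 9996; 11.9 to 13.2%), a difference of 5.15 percentage points and a ratio of 1.41. Lyz1-low cells were 76.8% (75.8 to 77.8%) of tumor-bearing and 82.5% (81.8 to 83.3%) of control AT2 cells. The middle class held 5.51% and 4.95%, so the gap between the populations was thinly filled in both libraries. In Lyz1-high cells the median Lyz1 share was 2.04% of UMIs in the tumor-bearing library, with quartiles of 1.40 and 2.84% and a maximum of 11.8%, and 1.92% in the control library, with quartiles of 1.32 and 2.71% and a maximum of 8.60%. Lyz1-low cells had a median of 0.0273% (tumor-bearing) and 0.0296% (control).

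**Figure D1:**
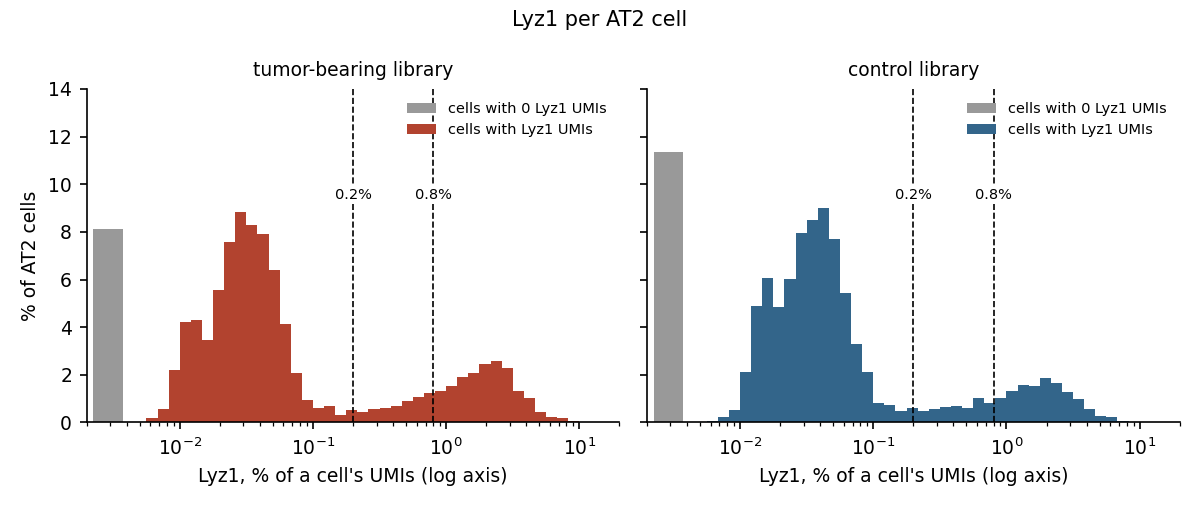
Distribution of Lyz1 over AT2 cells of the tumor-bearing (left) and control (right) library: the x axis is Lyz1 as a percent of a cell's UMIs on a log axis, the y axis the percent of AT2 cells per bin, the grey bar holds cells with 0 Lyz1 UMIs, and dashed lines mark 0.2% and 0.8%. A large population lies near 0.03% and a second one near 2%, with 370 (tumor-bearing) and 495 (control) cells between the lines.

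The threshold fell on the lower shoulder of the high population. In the tumor-bearing library 60 AT2 cells had Lyz1 between 0.7 and 0.8% and 61 between 0.8 and 0.9%, and in the control library 59 and 56. The cells nearest to the threshold stood at 0.7992 and 0.8004% in the tumor-bearing library and at 0.7988 and 0.8041% in the control library. These values chose the members and are given as a description.

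The larger Lyz1-high share of the tumor-bearing library was seen at each depth. Among AT2 cells of 2000 to 5000 UMIs, 14.8% (11.7 to 18.4%) of tumor-bearing and 11.2% (9.72 to 12.9%) of control cells were Lyz1-high. The shares were 15.6% and 10.9% at 5000 to 7500 UMIs, and 17.6% and 14.2% at 7500 to 10000 UMIs. Above that they were 19.4% (17.8 to 21.1%) and 16.2% (14.2 to 18.4%). The intervals of the libraries overlapped in the shallowest and in the deepest band. Within each library the share was thus highest in the deepest cells. With every cell thinned to 2000 UMIs, the Lyz1-high share was 17.9% of tumor-bearing and 12.7% of control AT2 cells. Over all AT2 cells, Lyz1 stood at 4805 CPM in the tumor-bearing, against 3412 CPM in the control library, 1.41-fold higher, and Lyz1-high cells held 88.4% and 84.5% of these Lyz1 UMIs. With the control level of Lyz1 kept in each class and the tumor-bearing cells in place of the control ones, the ratio was 1.34-fold. With the control class shares kept and the tumor-bearing Lyz1 levels used, it was 1.04-fold. Since the classes were cut on Lyz1, the level within a class could move only so far. These ratios are a description and cannot weigh the class shares against the levels within classes.

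Lyz1-high cells were rare outside the AT2 class. Of cells with Sftpc under 2%, 0 of 1219 reached 0.8% Lyz1 in the tumor-bearing library, which allows a share of up to 0.246% at 3 counts (the Clopper-Pearson upper bound is 0.302%), and 1 of 544 (0.184%) in the control library. The share was larger at 10 to 15% Sftpc, with 9.92% (12 of 121 cells) in the tumor-bearing and 5.33% (9 of 169) in the control library. It was 18.3% and 13.8% in AT2 cells with Sftpc of 30% or more. Cells with Sftpc under 2% had somewhat less Lyz1 than Lyz1-low AT2 cells, which the rule holds under 0.2% Lyz1. Cells at 10 to 15% Sftpc had more, 2724 CPM (tumor-bearing) and 1331 CPM (control). In cells with Sftpc under 2%, whose median depth was 4548 UMIs (tumor-bearing) and 5385.5 UMIs (control), 71.8% and 72.6% had a Lyz1 UMI, and Lyz1 summed to 258 and 324 CPM. In Lyz1-low AT2 cells, at median depths of 8889 and 6898 UMIs, 89.4% and 86.3% had one, and Lyz1 summed to 319 and 343 CPM. Empty droplets (barcodes of 1 to 100 UMIs) carried 3462 CPM of Lyz1 in the tumor-bearing, against 3182 CPM in the control library. How much of the Lyz1 in Lyz1-low cells was free RNA was not tested.

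Lyz2, the neighbour and paralog of Lyz1, was the one gene whose level differed by 1.5-fold or more between the classes in both libraries. Lyz2 held 22232 CPM in Lyz1-high and 36959 CPM in Lyz1-low cells of the tumor-bearing library, a ratio of 0.602 (conditional binomial interval 0.599 to 0.604). In the control library it held 24305 CPM in Lyz1-high and 37594 CPM in Lyz1-low cells, a ratio of 0.647 (0.644 to 0.649). Lyz1 itself, which the rule used, was 72.8-fold higher in Lyz1-high than in Lyz1-low cells of the tumor-bearing library and 64.4-fold higher in the control library. The rule for a call asked for at least 50 CPM in either class, a ratio of at least 1.5-fold on the log2 scale with a pseudocount of 1 CPM, and separate Poisson intervals, in each library. It called 0 of 1666 genes higher (0%) and 1 lower (0.06%), Lyz1 and Sftpc not counted. In each library alone, Lyz2 was again the 1 gene called lower, of 1718 genes (0.0582%) in the tumor-bearing and of 1763 (0.0567%) in the control library, and 0 were called higher. Since the classes were made from the Lyz1 counts of the same cells, no test belongs to this contrast. With Lyz1 and Sftpc left out of the UMI total, the Lyz2 ratios were 0.623 and 0.669, and the control value no longer reached 1.5-fold, so 0 genes were called.

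Lyz2 was lower in cells with more Lyz1, but it did not fall steadily from bin to bin. In the tumor-bearing library Lyz2 summed to 36959 CPM in cells under 0.2% Lyz1, 24976 CPM at 0.4 to 0.8%, 22078 CPM at 1.6 to 2.5% and 17601 CPM at 4% or more. In the control library the same bins held 37594, 26708, 23962 and 19664 CPM. Between 0.8 and 4% Lyz1 the Lyz2 level was nearly flat in both libraries, at 22078 to 23490 CPM in the tumor-bearing and 23962 to 25450 CPM in the control library. Lyz1 and Lyz2 together summed to 71832 CPM in tumor-bearing and 71365 CPM in control cells at 4% Lyz1 or more, against 37278 and 37937 CPM under 0.2%. At 0.4 to 0.8% the sum was at its lowest, 31012 CPM (tumor-bearing) and 32635 CPM (control).

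**Figure D2:**
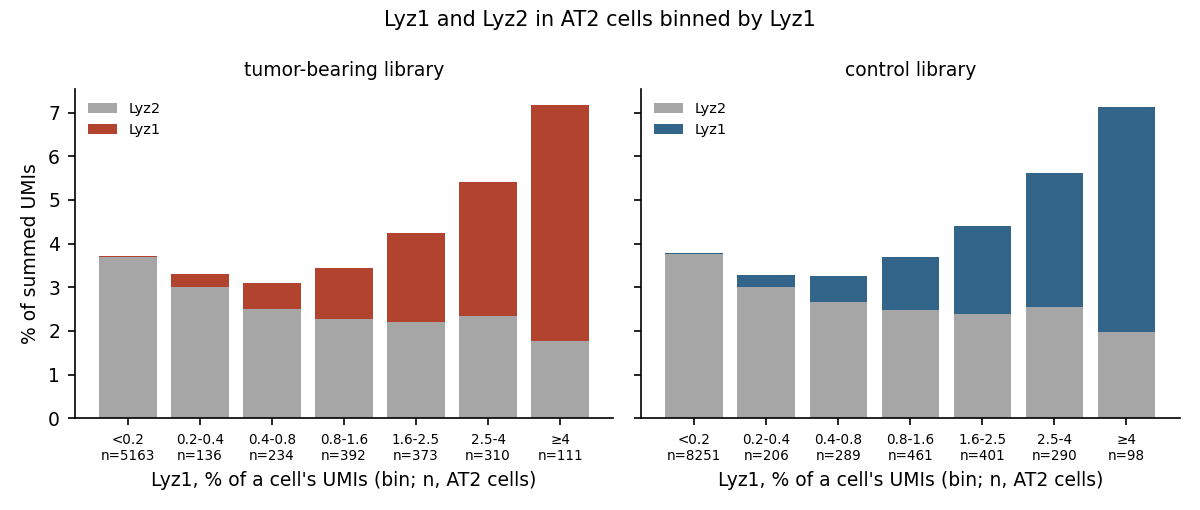
Lyz1 (coloured) stacked on Lyz2 (grey) in AT2 cells binned by Lyz1, tumor-bearing library on the left and control on the right: the x axis is the bin of Lyz1 as a percent of a cell's UMIs with the number of cells n, the y axis the percent of UMIs summed over the bin. Lyz2 is highest under 0.2% Lyz1 and lowest at 4% or more, while the sum of both genes is highest at 4% or more.

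Cells with very little Lyz2 were found in every Lyz1 class. Of cells with Lyz1 at 4% or more, 51 of 111 (45.9%, interval 36.4 to 55.7%) in the tumor-bearing and 39 of 98 (39.8%, 30.04 to 50.2%) in the control library had Lyz2 under 1% of UMIs. At 0.8 to 4% Lyz1 the share was 11.7% (tumor-bearing) and 5.64% (control), in middle cells it was larger, at 16.8% and 8.89%, and in Lyz1-low cells it was 6.51% and 4.82%. The share therefore did not climb steadily with Lyz1. The cells with the most Lyz1 thus lay on both sides of 1% Lyz2. Their median Lyz2 was 1.36% (tumor-bearing) and 1.64% (control), against 3.62% and 3.63% in Lyz1-low cells. Seen from Lyz2, the Lyz1-high share was 32.1% in the quintile of AT2 cells with the least Lyz2 and 1.86% in the quintile with the most in the tumor-bearing library. In the control library these shares were 24.7% and 1.45%. The next-lowest Lyz2 quintile was close to the lowest, at 32.8% (tumor-bearing) and 22.3% (control). Both genes are percentages of the same UMI total, which links them in part by arithmetic. Empty droplets held 24092 CPM (tumor-bearing) and 30934 CPM (control) of Lyz2, and the part of such free RNA in the Lyz2 values was not tested.

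The genes lie side by side on the minus strand of chromosome 10. Lyz1 (ENSMUSG00000069515) spans positions 117287797 to 117292868 and Lyz2 (ENSMUSG00000069516) positions 117277331 to 117282321 in GENCODE vM21 on GRCm38, the assembly also named mm10. Their upstream windows are shown because the genes, alike in sequence, differed so widely between cells of 1 type. Each window holds the 250 bases before the RefSeq start (GRCm38.p6), 5′ to 3′ on the minus strand, chr10:117292869-117293118 for Lyz1 and chr10:117282273-117282522 for Lyz2, and the longest GENCODE model of Lyz2 begins inside its window. Capitals mark bases that differ between the pair or have no partner in their alignment.

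Lyz1: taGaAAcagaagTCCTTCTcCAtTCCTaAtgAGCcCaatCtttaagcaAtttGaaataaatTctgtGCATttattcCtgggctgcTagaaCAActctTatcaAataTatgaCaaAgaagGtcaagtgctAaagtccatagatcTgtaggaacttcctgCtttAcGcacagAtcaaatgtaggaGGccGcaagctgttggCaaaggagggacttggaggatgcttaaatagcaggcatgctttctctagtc
Lyz2: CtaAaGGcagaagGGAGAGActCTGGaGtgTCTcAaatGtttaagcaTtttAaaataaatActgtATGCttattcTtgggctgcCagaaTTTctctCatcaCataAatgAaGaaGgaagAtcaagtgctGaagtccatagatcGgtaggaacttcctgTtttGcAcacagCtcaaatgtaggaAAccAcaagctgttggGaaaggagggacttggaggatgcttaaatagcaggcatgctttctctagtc

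Of 248 aligned positions, 200 (80.6%) were identical. The motif TNAAGTG, bound by NK2 homeodomain factors such as the lung factor Nkx2-1, occurred once in each window with its first base at -130 from the start on the plus strand of the gene. It was present on either strand in 10.1% of 32851 windows of the same length. The ETS core GGAAGT occurred once in each at -100 on the opposite strand, and in 19.7% of all windows. TATAAA was found in neither window, and in 12.4% of all windows. These matches are letters shared by both genes and show no factor bound. The messages themselves could be told apart by their reads for the most part. Of the 401 stretches of 100 bases in the last 500 bases of the Lyz1 transcript, 5 (1.247%) also occurred in Lyz2, and reads from those cannot be assigned to one gene.

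Other genes near Lyz1 differed little between the classes. Of 18 genes within 500 kb, 7 reached 20 CPM, Lyz1 and Lyz2 included. Cpm, a membrane carboxypeptidase, had 187 CPM in Lyz1-high and 170.3 CPM in Lyz1-low cells of the tumor-bearing library, and 171 and 156 CPM in the control library. The ratios of Cpm were 1.10 and 1.09. Rab3ip, Cct2, Yeats4 and Cpsf6 had ratios between 0.919 and 1.04 over both libraries.

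The other markers listed for these cells hardly separated the classes. Cxcl15 (lungkine, a chemokine secreted by lung epithelium) had 3873 CPM in Lyz1-high and 3571 CPM in Lyz1-low cells of the tumor-bearing library, and 2681 and 2478 CPM in the control library, a ratio of 1.08 in each. Chil1, a secreted chitinase-like protein, had 2257 and 2017 CPM in the tumor-bearing and 1856 and 1694 CPM in the control library, ratios of 1.12 and 1.10. Bex2, a small signalling adaptor, had 363 and 337 CPM in the tumor-bearing and 226 and 189 CPM in the control library, ratios of 1.08 and 1.19. Napsa, the protease that helps mature surfactant proteins, had ratios of 1.03 and 1.02. The data therefore did not bear out a class marked by these genes together, and the cells are named by Lyz1 alone.

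Seen across all AT2 cells, Chil1 and Cxcl15 did vary with the Lyz1-high share. In the quintile of AT2 cells with the most Chil1, 21.8% of tumor-bearing and 15.6% of control cells were Lyz1-high, and in the quintile with the least 10.6% and 7.35%. For Cxcl15 the highest quintile held 21.1% and 15.1%, and the lowest 11.5% and 8.70%. The lowest quintiles had fewer UMIs per cell, for Cxcl15 a median of 7978 against 9681 in the highest quintile of the tumor-bearing library. The levels did not rise steadily with Lyz1, since middle cells had no more of either gene than Lyz1-low cells. In middle cells Chil1 had 1825 CPM (tumor-bearing) and 1598 CPM (control), and Cxcl15 had 3436 and 2469 CPM. The genes whose log level was most like that of Lyz1 over 6719 tumor-bearing and 9996 control AT2 cells were Chil1 (Pearson r 0.13 and 0.11), Cxcl15 (0.12 and 0.099), Npc2, Rnase4, Fabp5, Bex2, Hc and mt-Co1. Cells of a library share its depth and free RNA, and correlations this weak in sparse counts are no finding. Lyz2 was the least like, at r -0.22 in the tumor-bearing, against -0.17 in the control library.

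**Figure D3:**
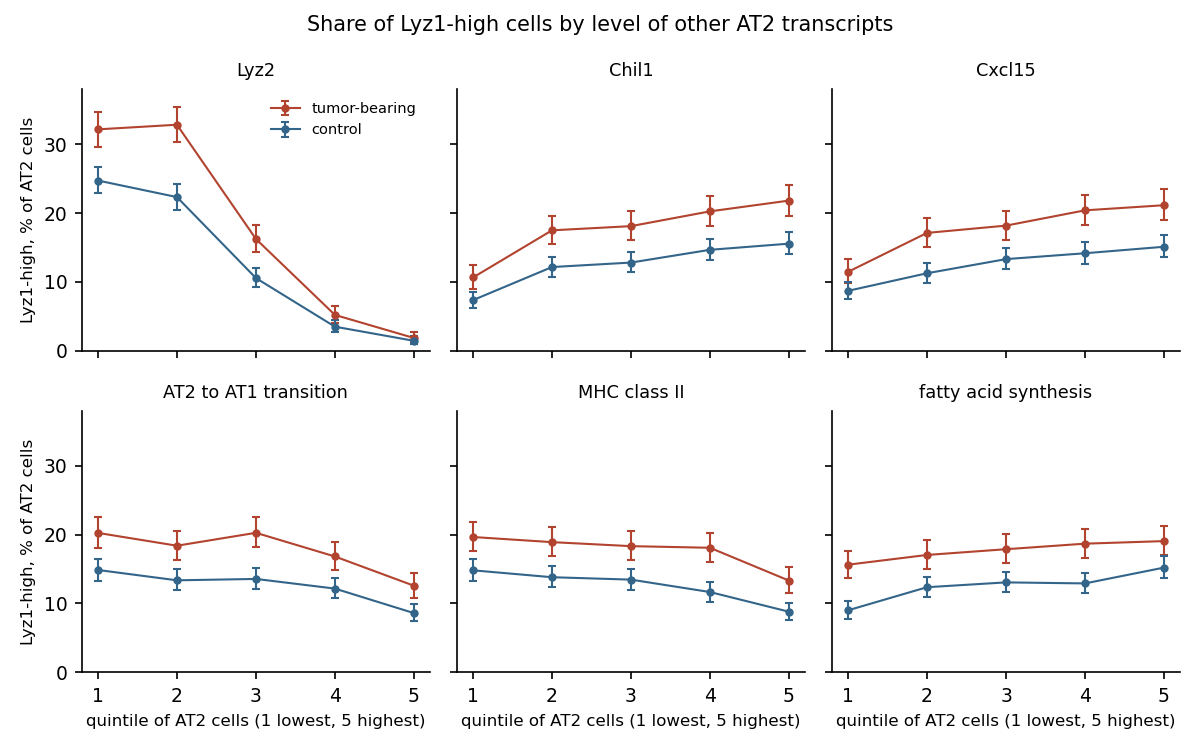
Share of Lyz1-high cells (y axis, percent of AT2 cells with Clopper-Pearson intervals) in quintiles of AT2 cells ranked by the UMI share of a gene or gene list (x axis, 1 lowest to 5 highest), tumor-bearing in red and control in blue. The share is 32.1% (tumor-bearing) and 24.7% (control) in the lowest Lyz2 quintile and 1.86% and 1.45% in the highest, while the other panels run within 7.35 to 21.8%.

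Apart from Lyz1 and Lyz2, no transcript of at least 50 CPM differed by 1.5-fold between Lyz1-high and Lyz1-low cells in either library. The middle 95% of log2 ratios, Lyz1-high over Lyz1-low, lay between -0.18 and 0.11 over 1718 genes in the tumor-bearing and between -0.17 and 0.13 over 1763 genes in the control library. At a ratio of 1.2-fold, a setting chosen after the values were seen, 1 gene was higher (0.06%) and 3 were lower (0.18%) in both libraries. Nrn1, a secreted neuritin, had 73.0 CPM in Lyz1-high and 56.4 CPM in Lyz1-low cells of the tumor-bearing library, and 140.5 and 115 CPM in the control library. Areg, a ligand of the EGF receptor, had 104 and 128 CPM in the tumor-bearing and 52.5 and 71.7 CPM in the control library. Anxa5, which binds phosphatidylserine, had 176 and 212 CPM in the tumor-bearing and 180 and 219 CPM in the control library. Lyz2 was the other gene past 1.2-fold. Across genes the log2 ratios of the libraries had a Pearson r of 0.46 over 1666 genes, and 0.43 without Lyz2. Of 1665 genes, 1105 (66.4%) had the same sign in both. Genes are not independent replicates, and the libraries share the rule that cut the classes.

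**Figure D4:**
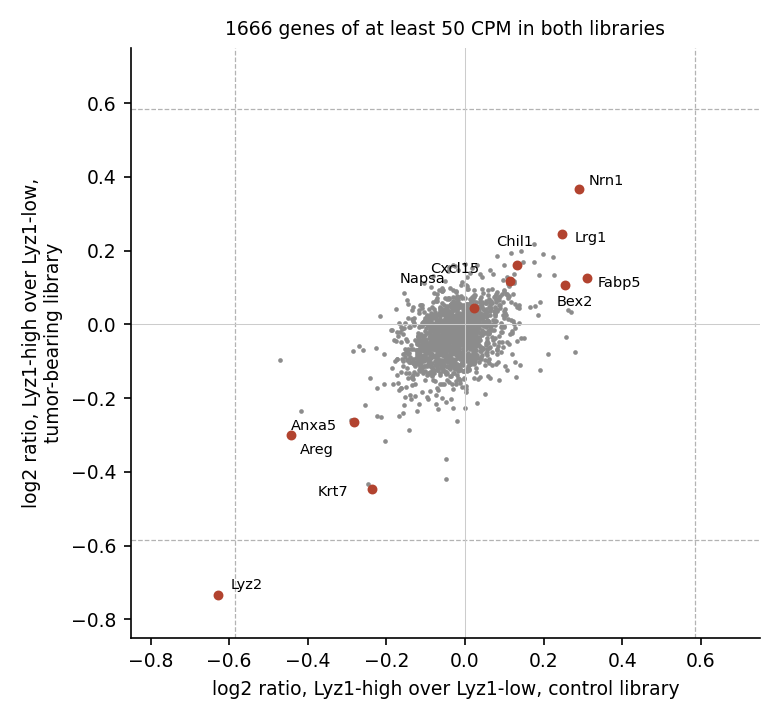
Log2 ratio of CPM, Lyz1-high over Lyz1-low AT2 cells, in the tumor-bearing library (y axis) and the control library (x axis) for 1666 genes, with dashed lines at 1.5-fold and genes named in the text in red (Lyz1 itself is off the scale and not drawn). Lyz2 alone lies past 1.5-fold in both libraries.

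Gene groups were compared by their medians over members of at least 20 CPM, beside the median of all 4101 such genes, which was -0.03 in each library on the log2 scale. Of all genes, 16.6% had ratios above 0 and 44.1% below 0 in both libraries. With Lyz1 and Sftpc left out of the total these shares were 40.9% and 18.3%, so signs near 0 are set by the scaling. Surfactant protein genes were level: the ratios of Sftpa1, Sftpb and Sftpd lay between 0.957 and 1.00. The 14 measured genes of lamellar bodies and phospholipid handling had medians of 0.02 in both libraries, 7 above 0 and 3 below 0 in both. Transcription factors of AT2 cells had medians of -0.02 (tumor-bearing) and -0.03 (control), and 0 of the 13 measured genes passed 1.2-fold in both libraries. Under the other total their medians were 0.03 and 0.01.

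Of the lists compared, genes of the passage from AT2 to AT1 cells had the lowest medians. All 10 measured members of 16 had ratios below 0 in both libraries, with medians of -0.25 (tumor-bearing) and -0.24 (control), and 7 of 10 did so without Lyz1 and Sftpc in the total. Krt7, a keratin of simple epithelia, had 75 CPM in Lyz1-high and 103 CPM in Lyz1-low cells of the tumor-bearing library, and 99.998 and 118 CPM in the control library. S100a6, a calcium-binding protein, had 143 and 193 CPM in the tumor-bearing and 171 and 203 CPM in the control library. Lgals3, which encodes galectin-3, had 60.7 and 71.7 CPM in the tumor-bearing and 54.4 and 73.0 CPM in the control library. Genes of mature AT1 cells had medians of -0.18 and -0.16, with all 10 measured members below 0 in both libraries, or 9 of 10 under the other total. AT1 markers summed to 2171 CPM in Lyz1-high and 2476 CPM in Lyz1-low cells of the tumor-bearing library, and to 2077 and 2284 CPM in the control library. The sums were highest in middle cells, at 2618 CPM (tumor-bearing) and 2722 CPM (control), so they did not fall steadily with Lyz1. The part of AT1 transcripts in these ratios was not tested. In the quintile of AT2 cells highest in the transition genes, 12.6% were Lyz1-high in the tumor-bearing, against 8.60% in the control library, and in the lowest quintile 20.2% and 14.9%.

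MHC class II genes, which AT2 cells express in the healthy lung, were slightly lower in Lyz1-high cells. All 6 measured members were below 0 in both libraries, with medians of -0.10 (tumor-bearing) and -0.13 (control), and 5 of 6 under the other total. Cd74, the invariant chain, had 6124 CPM in Lyz1-high and 6583 CPM in Lyz1-low cells of the tumor-bearing library, and 6404 and 7021 CPM in the control library. H2-Ab1, a chain of the antigen-presenting dimer, had ratios of 0.937 and 0.888. The 8 measured MHC class I genes had medians of -0.10 and -0.04, and the control median was 0.01 under the other total.

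Some metabolic and secretory groups leaned the other way. Cholesterol synthesis genes had medians of 0.06 (tumor-bearing) and 0.13 (control), with 13 of 16 measured members above 0 and 0 below 0 in both libraries. In the quintile of AT2 cells lowest in these genes, 17.7% of tumor-bearing and 8.75% of control cells were Lyz1-high. The highest quintile held 17.3% and 14.7%, so the share rose in the control library only. Fdps, which makes farnesyl diphosphate, had 153 CPM in Lyz1-high and 149 CPM in Lyz1-low cells of the tumor-bearing library, and 189 and 157 CPM in the control library. Fatty acid synthesis genes had medians of 0.03 and 0.11, with 10 of 14 above 0 in both. Acly, which supplies cytosolic acetyl-CoA, had ratios of 1.15 and 1.08. The lipid carrier Fabp5 had 954 CPM in Lyz1-high and 875 CPM in Lyz1-low cells of the tumor-bearing library, and 1036 and 835 CPM in the control library. The 4 measured acute phase and complement genes were all above 0 in both libraries, with medians of 0.15 and 0.14. Lrg1, a secreted leucine-rich glycoprotein, had 378 and 319 CPM in the tumor-bearing and 253 and 213 CPM in the control library. Hp, haptoglobin, had ratios of 1.12 and 1.13. Its 371 CPM in tumor-bearing Lyz1-high cells lay under 0.5 times the 748 CPM of empty droplets, and the part of free RNA was not tested. Immediate early genes, which dissociation can induce, had medians of -0.11 in the tumor-bearing, against -0.01 in the control library, and endoplasmic reticulum chaperones -0.05 and -0.07. Under the other total the control median of the immediate early genes was 0.04 and the tumor-bearing median of the chaperones 0.00147.

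Markers of the leukocyte list were near 0 in both classes, while club, endothelial, neutrophil and red cell markers stood at levels that differed between libraries. Macrophages also express lysozyme. Of 10 macrophage and monocyte markers, 7 had UMIs in Lyz1-high cells of each library, and 8 (tumor-bearing) and 6 (control) in Lyz1-low cells. Lyz2 left out, the list summed to 8.87 CPM in Lyz1-high and 8.72 CPM in Lyz1-low cells of the tumor-bearing library, and to 7.40 and 7.998 CPM in the control library. At 0 in Lyz1-high cells were Marco, Mrc1 and C1qb in the tumor-bearing and Marco, Ccr2 and Adgre1 in the control library. Leukocyte markers summed to 2.61 CPM in Lyz1-high and 3.69 CPM in Lyz1-low cells of the tumor-bearing library, and to 1.37 and 1.23 CPM in the control library. Lymphocyte markers, nearly all Cd79b, summed to 22.8 and 23.5 CPM in the tumor-bearing and 26.3 and 26.0 CPM in the control library. Club cell markers, of which Scgb1a1 made up nearly the whole sum, came to 6233 and 6602 CPM in the tumor-bearing and 3097 and 2553 CPM in the control library. Endothelial markers summed to 138 and 146 CPM in the tumor-bearing and 38.8 and 36.3 CPM in the control library. Platelet markers summed to 41.2 and 26.6 CPM in the tumor-bearing and 27.3 and 28.0 CPM in the control library, and neutrophil markers to 19.6 and 30.5 CPM in the tumor-bearing and 0.423 and 0.287 CPM in the control library. Red cell markers stood at 56.0 and 52.8 CPM in the tumor-bearing and at 282 and 231 CPM in the control library. The part of these transcripts in the class differences was not tested. RNA quality and size were close too: median mitochondrial UMIs were 3.15 and 3.03% in the tumor-bearing and 3.54 and 3.35% in the control library, and median genes 2030 and 2004 in the tumor-bearing and 1786 and 1742 in the control library.

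The last comparison asks how Lyz1-high cells of the tumor-bearing library differed from those of the control library. The size rule called 18 genes higher (1.02%) and 14 lower (0.795%) of 1760. Within Lyz1-low cells it called 19 higher (1.06%) and 14 lower (0.783%) of 1787, and within middle cells 26 higher (1.39%) and 15 lower (0.804%) of 1865. All 3 comparisons draw on the same pair of libraries. Among the higher genes, Acot1, an acyl-CoA thioesterase, had 121 CPM in tumor-bearing and 45.1 CPM in control Lyz1-high cells, a fold of 2.67, beside 2.62 in Lyz1-low cells. Acadl, a mitochondrial acyl-CoA dehydrogenase, had 99.5 and 49.4 CPM, and folds of 2.02 in Lyz1-high and 1.86 in Lyz1-low cells. Eci2 and Plin2, an enoyl-CoA isomerase and a lipid droplet coat protein, had folds of 1.69 and 1.73 in Lyz1-high cells. The 17 measured fatty acid oxidation genes had a median log2 ratio of 0.45 in Lyz1-high and 0.41 in Lyz1-low cells, where all genes had -0.04 in each class.

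Among the other genes that the naming rule gives, Dbp, an output factor of the circadian clock, had 245 CPM in tumor-bearing and 120.1 CPM in control Lyz1-high cells, a fold of 2.04, beside 2.06 in Lyz1-low cells. Areg had 104 and 52.5 CPM, folds of 1.98 and 1.79. Cxcl1, a neutrophil-attracting chemokine, had 104 and 56.4 CPM, folds of 1.84 and 2.18. Bex2 had folds of 1.61 and 1.78, Irx1, a homeobox factor, 1.61 and 1.57, and Arid5b, a chromatin regulator, 1.68 and 1.56. Neutrophil markers summed to 19.6 CPM in tumor-bearing and 0.423 CPM in control Lyz1-high cells, and their part in these folds was not tested. Ifitm3, Ly6a, Ly6c1 and Scgb1a1 were also called higher but lay at under 0.5 times their level in empty droplets. Endothelial cells express several of these, and Scgb1a1 is the main secreted protein of club cells.

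Among the genes lower in tumor-bearing than control Lyz1-high cells were some that encode MHC class I chains and acyl-CoA desaturases. B2m, the light chain of MHC class I, had 398 CPM in tumor-bearing and 735 CPM in control cells, a fold of 0.541, beside 0.590 in Lyz1-low cells. H2-K1, a class I heavy chain, had 376 and 621 CPM, folds of 0.606 and 0.617. The 8 measured MHC class I genes had a median log2 ratio of -0.39 in Lyz1-high and -0.33 in Lyz1-low cells. Scd2 and Scd1, desaturases of saturated acyl-CoA, had folds of 0.511 and 0.622 in Lyz1-high and 0.532 and 0.673 in Lyz1-low cells. Fatty acid synthesis genes as a list had a median log2 ratio of -0.31 in Lyz1-high and -0.24 in Lyz1-low cells. Cyp2b10, a drug-metabolising cytochrome, had a fold of 0.520, Gstp1, a glutathione transferase, 0.574, and Mt1, a metallothionein, 0.584. Vpreb3, known from the pre-B cell receptor, had 46.4 and 99.7 CPM, a fold of 0.465 beside 0.455 in Lyz1-low cells. Nrn1 had 73.0 and 140.5 CPM, a fold of 0.520, and Gkn3, a gastrokine, 0.564. The hemoglobin transcripts Hbb-bs, Hba-a1 and Hba-a2 were lower as well, at levels low against empty droplets.

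For most genes the library difference was of much the same size in Lyz1-high and Lyz1-low cells. The log2 ratio of tumor-bearing over control in Lyz1-high cells minus that in Lyz1-low cells had a middle 95% of -0.17 to 0.15 over 1732 genes. Lyz2 had a fold of 0.915 in Lyz1-high and 0.983 in Lyz1-low cells, and Lyz1 1.05 and 0.931. No gene can be said to differ between the classes in its response, since the difference was not tested.

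**Figure D5:**
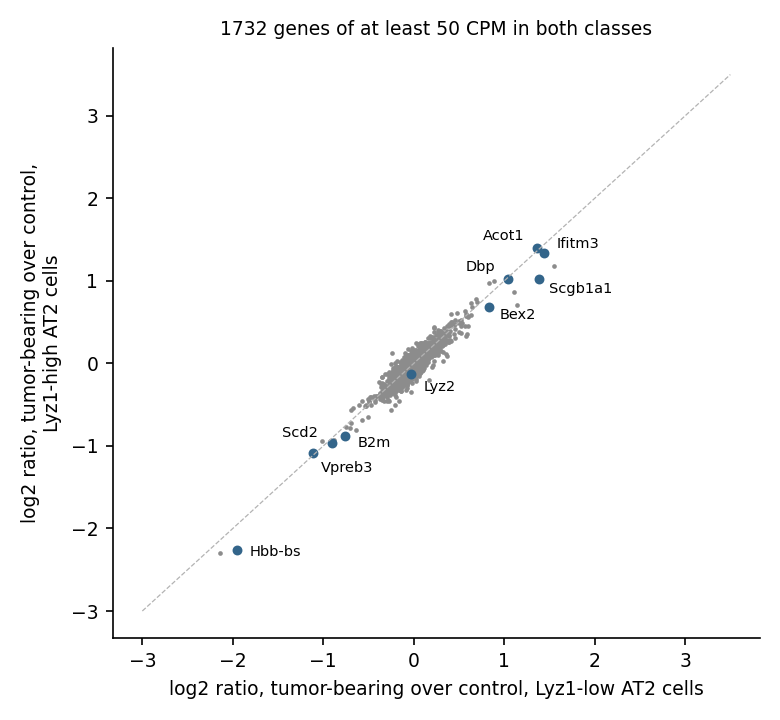
Log2 ratio of CPM, tumor-bearing over control, in Lyz1-high (y axis) and Lyz1-low (x axis) AT2 cells for 1732 genes, with the line of equal values dashed and some genes named in the text in blue. Both axes use the same pair of libraries; Acot1 lies at folds of 2.67 in Lyz1-high and 2.62 in Lyz1-low cells and Vpreb3 at 0.465 and 0.455, close to the line.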

How the data were processed

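Single-cell RNA was measured in 1 tumor-bearing and 1 control library, grouped by the labels' treatment. For each library the authors deposited a matrix of raw counts of UMIs over all 737280 barcodes, without normalisation or a call of cells. Reads were processed with Cell Ranger 2.1.0, per the series design, and mm10, R 3.5.3 and Seurat are named in the submitters' processing notes without a role. No annotation of cells by the submitters was used, so the classes were rebuilt.

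Cells were barcodes of at least 2000 UMIs, of which 16 (tumor-bearing) and 7 (control) with under 500 genes and 12 and 13 with over 20% mitochondrial UMIs were removed. Depth differed between the libraries (84448360 and 91498124 UMIs) and limits the precision of low genes. The classes, the gene lists and the size rule were chosen with earlier results of these data known. Doublets were kept, since the rule has no doublet step. Scrublet in scanpy 1.11.5 marked 0 cells in each library automatically, which shows no working call, so an alternative removed the 533 and 966 highest scores. Counts were summed per class and library and scaled to CPM, with Python 3.11.15, scipy 1.17.1 and pandas 2.3.3. Intervals were Clopper-Pearson, Poisson or conditional binomial at 95%. Genes were named where they met the size rule (up to 15 per direction between classes, 10 between libraries, leaving out genes under 0.5 times their empty droplet level), as the 4 members per list with the largest mean ratio, as listed markers, or as the 8 genes most like Lyz1. Genes named for lying past 1.2-fold or low against empty droplets were chosen after their values were seen. The calculation was tested on simulated data with known folds. Of 28692 gene identifiers, 98.8% were in GENCODE vM21. Alternatives changed the Lyz1, Sftpc and UMI thresholds, depth, doublets, mixed droplets, summing, total, CPM minimum, pseudocount, centring and fold.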

Additional observations from a re-analysis of the deposited data

Results flagged for a closer look

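Scgb1a1, the main secreted protein of airway club cells, differed between Lyz1-high and Lyz1-low AT2 cells in opposite directions in the libraries. It had 6078 CPM in Lyz1-high and 6406 CPM in Lyz1-low cells of the tumor-bearing library, a ratio of 0.949 (0.941 to 0.957), and 2988 and 2460 CPM in the control library, a ratio of 1.21 (1.199 to 1.23). Cells with Sftpc under 2% held far more of it, and club markers summed to 347896 CPM (tumor-bearing) and 108045 CPM (control) there. In the comparison between libraries, Scgb1a1 in Lyz1-high cells lay at under 0.5 times its level in empty droplets. The part of free RNA or of mixed droplets in these ratios was not tested, and the intervals cover counting error only. The difference between the libraries was not tested, since each group had 1 library.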

How the results depend on the processing

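The Lyz1-high share stayed 1.40 to 1.45 times as large in the tumor-bearing as in the control library under the 7 alternatives that could alter it. A Lyz1 threshold of 1.0% gave Lyz1-high shares of 16.1% (tumor-bearing) and 11.4% (control). Without AT2 cells of 4% Lyz1 or more, a setting added after the data were seen, Lyz1-high shares were 16.3% and 11.6% and Lyz1-low shares 78.1% and 83.4%. A low threshold of 0.1% gave Lyz1-low shares of 74.9% and 80.1%. A further setting left out droplets holding at least 2 UMIs of markers of other cell types. It kept only 929 of 6719 (tumor-bearing) and 3050 of 9996 (control) AT2 cells, of which 163 and 368 were Lyz1-high. Median depth fell from 8982 to 7350 UMIs (tumor-bearing) and from 6941 to 6202.5 UMIs (control). Under this setting the control Lyz1-low share was 83.3% and 32 genes were lower in tumor-bearing than control Lyz1-high cells. With no CPM minimum, 2 genes were higher (Hbb-bt and Hist1h2ap) and 4 lower (Lyz2, Tagln, Ahnak2 and Acta2) in Lyz1-high than Lyz1-low cells, and 259 were higher and 153 lower in tumor-bearing than control Lyz1-high cells. At 1.2-fold, also added later, these counts were 1 and 3, and 107 and 139. Without Lyz1 and Sftpc in the total, 0 genes were lower in Lyz1-high cells, because Lyz2 missed 1.5-fold in the control library. For the other moved values the cause was not tested. The Lyz2 ratio lay between 0.594 and 0.623 in the tumor-bearing and between 0.615 and 0.669 in the control library. Of 3116 recomputed log2 ratios of single genes, 2773 stayed within their interval and 343 moved beyond it. The sign changed in 0 of the 316 that belong to Lyz1 or to genes past the size rule, and in 136 of the other 2800. For Lyz1 between the classes the sign could not change, since the classes were cut on it. With Lyz1 and Sftpc out of the total, the median changed sign for 6 (tumor-bearing) and 11 (control) of 24 gene lists. Depth limits genes under 50 CPM, and differences between mice cannot be measured with 1 library per group. No paired analysis was possible because each group had 1 library and the labels give no pairing between them.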
